A study of Mus musculus with 8 samples.

Results

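The genes described here are 10 genes of vascular endothelium, Esm1, Plxnd1, Apln, Kdr, Flt1, Pecam1, Cdh5, Tek, Tie1 and Aplnr, out of 25359 genes tested in whisker follicles. They were chosen by symbol, through the RefSeq accession of each array probe. The choice was made with the comparison of E7386 and vehicle already known, and Esm1 and Plxnd1 lead the set because they were lower with E7386. Their difference between the groups is therefore a description without a test. Together the genes have 12 probes on the array, all 12 of them detected, with 1 probe for each gene except Plxnd1 and Kdr, which have 2 each. All 12 probes were well above background on all 8 arrays, so no value given for these 10 genes is a bound.

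The study compared whisker follicle RNA of female ApcMin/+ mice given E7386 with that of female ApcMin/+ mice given vehicle, with 4 samples in each group. Mice of both groups carry 1 mutant allele of Apc, a scaffold of the complex that degrades beta-catenin, and no wild-type mice are among the samples. E7386, known as an inhibitor of the interaction of beta-catenin with the coactivator CBP, was given by mouth at 30 mg/kg, 2 times a day, starting at 8 weeks of age, for 4 cycles of 5 days on and 2 days off. Follicles were taken 6 h after the last dose. Whether each sample is a different mouse is not given in the labels, and errors and p-values cover only the spread between these samples. All 8 arrays lay on 1 slide in 1 scan, with vehicle and E7386 in separate rows, so row and treatment cannot be told apart. Vehicle arrays had more of their probes well above background (61.0% to 63.6%) than E7386 arrays (60.3% to 60.8%).

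Blood vessels grow by sprouting, in which a leading tip cell responds to vascular endothelial growth factor (VEGF) and trailing stalk cells form the tube. Esm1 encodes endocan, a proteoglycan secreted by endothelium and enriched in tip cells. Plxnd1 encodes plexin D1, the receptor through which semaphorin 3E guides sprouts, and Apln encodes apelin, a peptide ligand made by sprouting cells. Kdr and Flt1 encode VEGF receptors, Pecam1 and Cdh5 encode adhesion proteins of endothelial junctions, Tek and Tie1 encode the angiopoietin receptor and its partner, and Aplnr encodes the apelin receptor. The whisker follicle is set in a blood sinus and carries a dense capillary bed. In whole tissue, fewer endothelial cells and less RNA per cell cannot be told apart.

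Promoter windows, from 250 bases before the start to 50 bases after it, were held by RefSeq tables of GRCm38.p6 for 7 of the 10 genes. Shown here, 5′ to 3′, are those of the leading pair of genes and, for comparison, that of Flt1, whose signal hardly differed between groups. Capitals mark matches, on either strand, to the letters CTTTGA of TCF/LEF factors, the DNA partners of beta-catenin, and to AGGAAG of ETS factors, which act in most endothelial enhancers and promoters. The windows are chr13:113209409-113209708 on the plus strand for Esm1, chr6:115994956-115995255 on the minus strand for Plxnd1 and chr5:147725962-147726261 on the minus strand for Flt1.
Esm1: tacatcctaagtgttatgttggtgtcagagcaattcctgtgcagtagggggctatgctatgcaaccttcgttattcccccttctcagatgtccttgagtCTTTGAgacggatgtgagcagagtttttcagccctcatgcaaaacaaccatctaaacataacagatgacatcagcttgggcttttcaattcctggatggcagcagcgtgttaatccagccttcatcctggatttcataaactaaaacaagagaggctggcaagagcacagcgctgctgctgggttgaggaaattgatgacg
Plxnd1: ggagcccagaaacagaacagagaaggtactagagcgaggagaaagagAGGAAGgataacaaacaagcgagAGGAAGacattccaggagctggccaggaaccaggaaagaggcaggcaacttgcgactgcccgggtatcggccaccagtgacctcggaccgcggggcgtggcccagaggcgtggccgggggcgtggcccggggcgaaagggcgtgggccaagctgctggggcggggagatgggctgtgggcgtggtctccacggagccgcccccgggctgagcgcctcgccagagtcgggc
Flt1: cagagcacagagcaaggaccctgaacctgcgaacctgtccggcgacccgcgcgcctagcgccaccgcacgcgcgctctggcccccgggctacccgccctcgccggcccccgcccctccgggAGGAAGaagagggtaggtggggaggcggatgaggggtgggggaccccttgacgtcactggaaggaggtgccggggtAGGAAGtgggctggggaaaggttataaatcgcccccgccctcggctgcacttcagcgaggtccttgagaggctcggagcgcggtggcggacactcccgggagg
The Esm1 window held 1 match to CTTTGA, from base -151 to base -146 relative to the start, and no match to AGGAAG. The CTTTGA letters occurred in 16.0% of all 32851 promoter windows of this length, and among the 7 endothelial windows in that of Esm1 alone. The Plxnd1 window held 2 matches to AGGAAG, at bases -203 to -198 and -180 to -175. The Flt1 window also held 2, and AGGAAG occurred in 35.4% of all windows. None of the 7 windows held ACGTG, the core letters of hypoxia response elements (19.6% of all windows), or the inverted repeat of the glucocorticoid response element (0.475%). Matches within a window did not overlap. A match describes letters in a window and is no binding site.

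Esm1 was lower on every E7386 array than on every vehicle array. Signals are given as log2 of the processed intensity minus the 75th percentile of the same array, so that 0 is the level of a moderately bright probe. Levels are compared between arrays and not between genes. Esm1 was at -0.17, 0.082, 0.32 and 0.53 on vehicle replicates 1 to 4, and at -1.54, -0.75, -0.89 and -1.20 on E7386 replicates 1 to 4. The highest E7386 value, on replicate 2, lay below the lowest vehicle value, on replicate 1. The group means were 0.19 ± 0.30 (SD, n = 4) and -1.09 ± 0.35 (SD, n = 4), a log2 difference of -1.28 (SE 0.21), or 2.43-fold lower with E7386. Of the 25359 genes tested, 0.170% had a more negative difference.

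Plxnd1 was also lower on every E7386 array, on both of its probes. On the brighter probe, which is its main probe here, vehicle replicates 1 to 4 were at 3.70, 3.73, 3.73 and 3.90 and E7386 replicates 1 to 4 at 3.36, 3.00, 2.95 and 2.73. The vehicle values lay close together apart from replicate 4, which was the highest, and the E7386 values spread more widely. The means were 3.77 ± 0.09 (SD, n = 4) and 3.01 ± 0.26 (SD, n = 4), a log2 difference of -0.75 (SE 0.13), or 1.68-fold lower. The dimmer probe gave -0.28 ± 0.10 and -0.95 ± 0.24 (SD, n = 4 each), a difference of -0.67, with no overlap between groups. In a fit over all probes, in place of 1 probe per gene, neither Plxnd1 probe passed an adjusted p of 0.05. E7386 replicate 4 was the lowest and E7386 replicate 1 the highest of their group on both probes.

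Apln, the other gene tied to sprouting, did not share this difference. Its values were -1.28, -1.55, -0.68 and -0.80 on vehicle replicates 1 to 4 and -1.36, -0.82, -1.02 and -1.30 on E7386 replicates 1 to 4. The groups overlapped widely, and the spread within each was large. The log2 difference was -0.047 (SE 0.21), with a 95% interval from -0.54 to 0.45 that leaves room for changes of moderate size either way (limma adjusted p = 0.950).

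**Figure D1:**
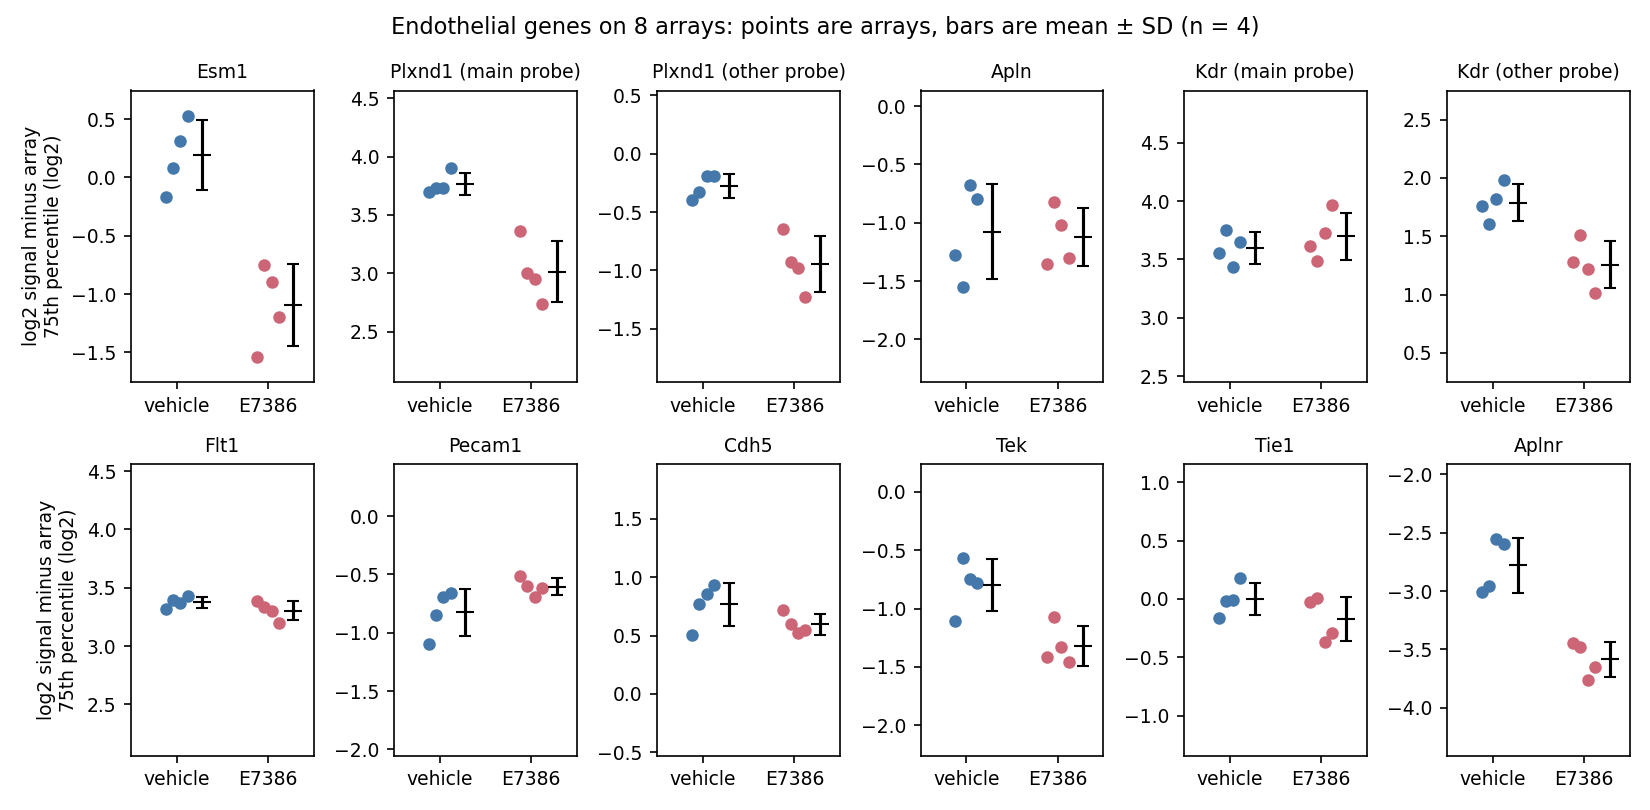
Log2 signal minus the array's 75th percentile for the 12 probes of the 10 endothelial genes, each point an array (4 vehicle, 4 E7386) and each bar the mean ± SD of a group, with all panels spanning the same number of log2 units. The E7386 points of Esm1, of both Plxnd1 probes, of Aplnr and of the other Kdr probe lie below all vehicle points, while Apln, Flt1 and Tie1 overlap.

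The apelin receptor gene Aplnr, placed among the general endothelial genes, was lower with E7386 as well. It was at -3.0, -2.96, -2.56 and -2.59 on vehicle replicates 1 to 4 and at -3.44, -3.48, -3.77 and -3.65 on E7386 replicates 1 to 4, without overlap. The log2 difference was -0.81 (SE 0.13, limma adjusted p = 0.0364), or 1.75-fold lower, and 0.797% of all genes had a more negative difference. The Aplnr probe was dim, with a processed intensity of 63.1 to 89.4 in the vehicle group and of 31.7 to 48.2 in the E7386 group. The dimmest probe well above background had an intensity of 11.3 to 16.6, depending on the array. When median signals were corrected with normexp at an offset of 50, which by construction shrinks differences of dim probes, the Aplnr difference was -0.39, still past the threshold (adjusted p = 0.0410).

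Esm1, Plxnd1 and Aplnr were the 3 of 10 genes past a limma adjusted p of 0.05, all 3 lower with E7386. Over all genes tested, 0.367% passed as lower, 0.753% as higher and 1.12% in either direction, and 15.2% had an unadjusted p under 0.05. The same 3 genes had groups that did not overlap, against 10.5% of all genes, and 5.7% of all genes did not overlap and were lower. Because the genes were chosen with this comparison known, these calls are a description and the shares are given as background alone. With no filter on detection none of the 10 passed, and none passed with the replicate number fitted as a block. Of 8 fits that each left out 1 array, Esm1 was past the threshold only in the fit without vehicle replicate 1, Plxnd1 only in the fit without E7386 replicate 1 and Aplnr in none. In these 8 fits their differences lay between -1.40 and -1.14 for Esm1, -0.87 and -0.66 for Plxnd1, and -0.88 and -0.73 for Aplnr. The groups of these genes did not overlap, so leaving out 1 array could not change the sign.

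**Figure D2:**
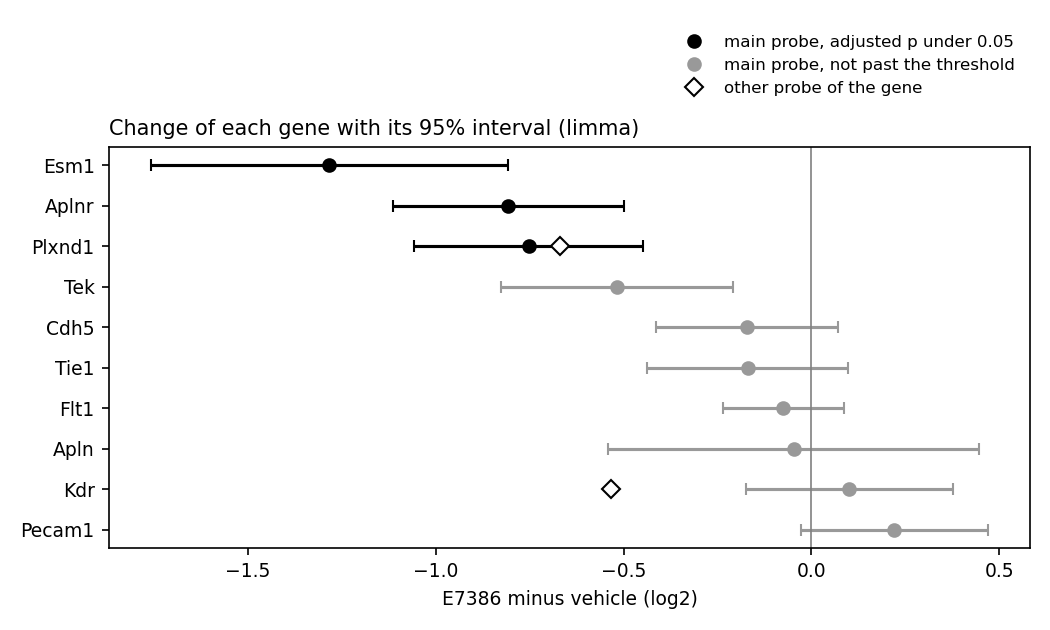
Difference E7386 minus vehicle on the log2 scale for the 10 genes, with points for the main probe, bars for the 95% interval of the limma fit (n = 4 per group) and open diamonds for a gene's other probe. Esm1, Aplnr and Plxnd1 lie furthest to the left at -1.28, -0.81 and -0.75, and the 2 probes of Kdr lie on opposite sides of 0.

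The junction genes and Tie1 differed little. Cdh5, which encodes VE-cadherin, was at 0.51, 0.77, 0.86 and 0.94 on vehicle replicates 1 to 4 and at 0.72, 0.60, 0.52 and 0.54 on E7386 replicates 1 to 4. Its log2 difference was -0.17 (95% interval -0.41 to 0.071, adjusted p = 0.489), with vehicle replicate 1 below all E7386 values and the other vehicle values above them. Pecam1, which encodes CD31, ran from -1.10 to -0.66 with vehicle and from -0.69 to -0.51 with E7386. Its difference of 0.22 was in the opposite direction (95% interval -0.027 to 0.47, adjusted p = 0.384). Tie1 ran from -0.16 to 0.18 with vehicle and from -0.37 to 0.0039 with E7386, a difference of -0.17 (95% interval -0.44 to 0.096, adjusted p = 0.536). For each of these 3 genes the interval lay above -0.75, the difference of Plxnd1, whose own 95% interval was -1.06 to -0.45. Plxnd1 was chosen as lower, so this is no test of a difference between the genes.

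Tek, the receptor of angiopoietins, stood between these genes and the lower ones. It was at -1.10, -0.57, -0.74 and -0.78 on vehicle replicates 1 to 4 and at -1.42, -1.07, -1.32 and -1.45 on E7386 replicates 1 to 4. Only vehicle replicate 1 reached into the E7386 range. The log2 difference was -0.52 (SE 0.13), with an unadjusted 95% interval of -0.83 to -0.21, and it did not pass over all genes (adjusted p = 0.126).

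The VEGF receptor genes gave a flat and a divided result. Flt1 had the smallest spread of the 10 genes, at 3.38 ± 0.05 with vehicle and 3.30 ± 0.08 with E7386 (SD, n = 4 each), and a difference of -0.075 (95% interval -0.24 to 0.087, adjusted p = 0.669). For Kdr, the main probe was at 3.60 ± 0.14 with vehicle and 3.70 ± 0.20 with E7386 (SD, n = 4 each), a difference of 0.10 (95% interval -0.17 to 0.38, adjusted p = 0.748). The other Kdr probe, which is printed in 10 spots on each array, was at 1.75, 1.60, 1.82 and 1.98 on vehicle replicates 1 to 4 and at 1.28, 1.51, 1.22 and 1.02 on E7386 replicates 1 to 4. On this probe the groups did not overlap and the difference was -0.53 (SE 0.13), short of the threshold over all probes (adjusted p = 0.106). The SD between its 10 spots was 0.026 to 0.079 on 7 arrays and 0.27 on E7386 replicate 2. That SD describes repeat spots of 1 probe and not the difference between probes. Since the changes of the 2 probes differed in sign (SE 0.12 for the main probe, 0.13 for the other), no direction is given for Kdr.

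The mean of the genes tied to sprouting was compared with that of the general endothelial genes. For each array the mean of Esm1, Plxnd1 and Apln, relative to the vehicle mean of each gene, was taken minus the same mean of the 7 other genes. This difference was -0.018, -0.23, 0.12 and 0.13 on vehicle replicates 1 to 4 and -0.66, -0.33, -0.34 and -0.65 on E7386 replicates 1 to 4. The groups did not overlap, and the difference between them was -0.49 on the log2 scale. Relative to vehicle the sprouting genes were at -0.69 on average, a mean carried by Esm1 and Plxnd1, and the general genes at -0.20. The general set itself was mixed, from -0.81 for Aplnr to 0.22 for Pecam1. With Kdr, which is also enriched in tip cells, counted among the sprouting genes by its main probe, the contrast was -0.24. By the other Kdr probe it was -0.40, with Kdr in either set. It was -0.39 with Plxnd1 counted among the general genes. No test was made, since the genes were chosen with the comparison known. Esm1 and Plxnd1 were chosen as lower with E7386, so a contrast below 0 without overlap follows largely from the choice.

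**Figure D3:**
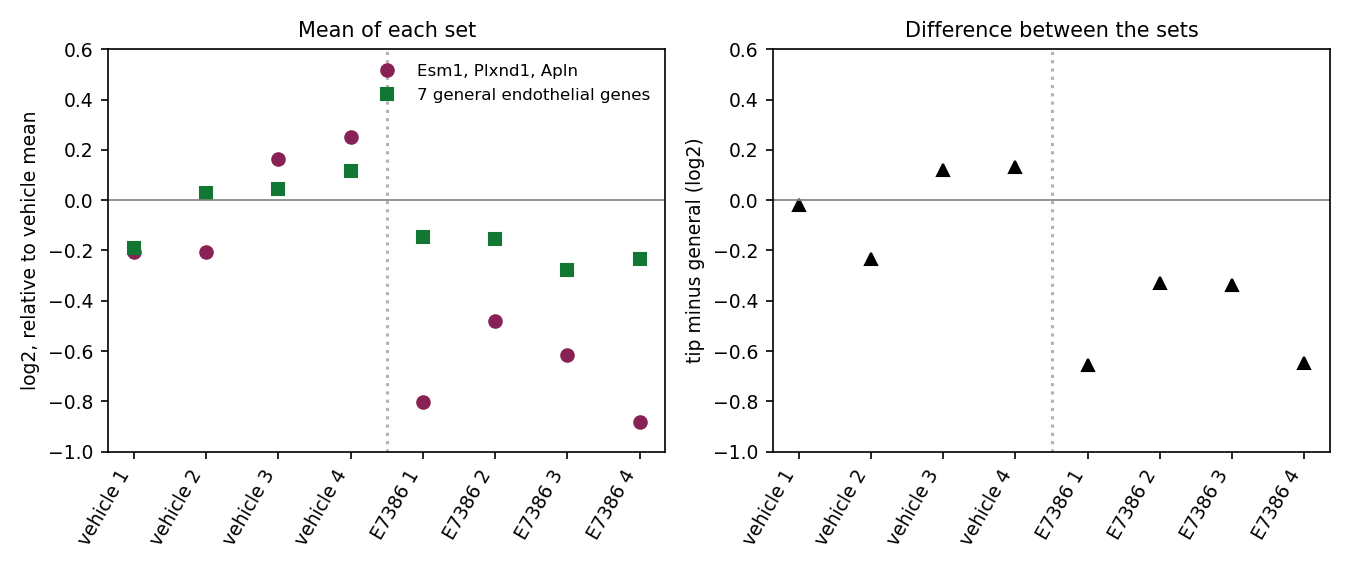
Left, mean of Esm1, Plxnd1 and Apln (circles) and of the 7 general endothelial genes (squares) on each array, in log2 units relative to the vehicle mean. Right, the difference between these means, which runs from -0.23 to 0.13 on vehicle arrays and from -0.66 to -0.33 on E7386 arrays.

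Vehicle arrays also differed from each other in a way that most of the genes shared. Vehicle replicate 1 had the lowest value of its group for 8 of the 10 genes, and vehicle replicate 4 the highest for 6 of them. The E7386 arrays showed this less, with replicate 3 the lowest of its group for 4 genes and replicate 1 the highest for 5. Vehicle replicate 1 was also the lowest vehicle array in the mean of 27 other pan-endothelial genes, at 1.18 against 1.39 to 1.51. Its mean of 12 skeletal muscle markers was 1.81, against 4.12 to 4.82 on the other vehicle arrays, and its mean of 8 adipocyte markers was -1.87, against -0.48 to -0.25 on the other vehicle arrays. Adipocyte means on E7386 arrays ran from -1.03 to 0.67, and 7 of the 8 markers had a higher mean with E7386. Muscle markers were also low on E7386 replicates 1 and 2, at 2.06 and 2.80, against 4.80 and 4.92 on replicates 3 and 4. With the muscle mean of each array as a covariate, the differences were -1.26 for Esm1, -0.77 for Plxnd1 and -0.80 for Aplnr. This fit was added after seeing the data. The muscle mean was 3.85 ± 1.39 with vehicle and 3.65 ± 1.44 with E7386 (SD, n = 4 each). It hardly differed between groups, so the covariate could move the differences little.

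Endothelial markers were present throughout the samples. All 27 other pan-endothelial genes, among them those for endomucin, claudin 5 and von Willebrand factor, were well above background on all 8 arrays. Their mean per array ran from 1.18 to 1.51 with vehicle and from 1.32 to 1.39 with E7386. Of these genes 18 had a lower and 9 a higher mean with E7386, with a median difference of -0.088, and 0 passed the limma threshold (9 at an unadjusted p under 0.05). Over all genes tested the median difference was 0.0088, 48.0% had a lower mean and 15.2% had an unadjusted p under 0.05. The smallest p-values belonged to Ramp2, which encodes a partner of the adrenomedullin receptor, at 0.33 (SE 0.07, adjusted p = 0.0656), and Ushbp1, at -0.67 (SE 0.15, adjusted p = 0.0968).

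Other genes known from tip cells did not follow Esm1 and Plxnd1 as a list. Of 16 such genes, 7 had a lower and 9 a higher mean with E7386, with a median of 0.029. Of the 16, 5 had an unadjusted p under 0.05 (15.2% of all genes) and 4 had groups without overlap (10.5% of all genes). Both counts held rises and falls, so the median near 0 does not mean that each gene was unchanged. Col4a1, which encodes a collagen chain of the vascular basement membrane, rose by 0.60 (SE 0.08, adjusted p = 0.0183), from 1.75 to 1.90 on vehicle arrays to 2.34 to 2.61 on E7386 arrays, and was the only gene of this list past the threshold. It did not pass with arrays scaled by their medians (0.52, adjusted p = 0.0626), and of 8 fits that each left out 1 array it passed in 2, those without E7386 replicate 1 and without E7386 replicate 4 (adjusted p = 0.0506 to 0.0761 in the other 6). Kcne3, a potassium channel subunit enriched in tip cells, was at -0.70 (SE 0.17, adjusted p = 0.102) and at -0.58 on its other probe. The classical tip cell genes Angpt2 and Dll4, named here after their values were seen, were at -0.21 (SE 0.17, adjusted p = 0.627) and -0.23 (SE 0.18, adjusted p = 0.594).

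Among the ligands and co-receptors of these pathways no gene passed the threshold. Of 8 genes for VEGF ligands, co-receptors and the receptor Flt4, 7 had lower means with E7386. The median of the 8 was -0.33, with 0 past the limma threshold and 3 at an unadjusted p under 0.05 (15.2% of all genes). Flt4, among the lower ones, was well above background on 3 vehicle arrays and only 1 E7386 array. It was kept through the vehicle group, and its difference lies near the floor. Pgf, which encodes placental growth factor, a ligand of the Flt1 product, came closest at -0.81 (SE 0.15, adjusted p = 0.0541). It ran from -1.01 to -0.58 on vehicle arrays and from -1.90 to -1.35 on E7386 arrays. Nrp1, which encodes neuropilin 1, a co-receptor of both VEGF and semaphorins, was at -0.59 (SE 0.14, adjusted p = 0.105), without overlap. The angiopoietin genes Angpt1 and Angpt4 were at -0.44 (SE 0.15, adjusted p = 0.232) and -0.42 (SE 0.16, adjusted p = 0.259). Of 3 measured ligands in that list, 3 had lower means and 0 passed (2 at an unadjusted p under 0.05).

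Plexin D1's relatives and ligands were mixed. Among 18 semaphorin, plexin and neuropilin genes, 10 had lower and 8 higher means, with a median of -0.0043 and 0 past the limma threshold. At an unadjusted p under 0.05 there were 6, against 15.2% of all genes. Sema3a, which encodes a ligand of neuropilin 1, was at 0.46 (SE 0.14, adjusted p = 0.185). Sema3e, which encodes the direct ligand of plexin D1 and is named after its values were seen, was at 0.44 (SE 0.15, adjusted p = 0.213), a higher mean than with vehicle where Plxnd1 was lower.

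Genes of Notch signalling and genes induced by VEGF or low oxygen also gave no call. The Notch list holds ligands and receptors as well as targets, so it does not measure Notch output. Of 7 measured endothelial Notch genes, 0 passed the limma threshold (1 at an unadjusted p under 0.05, median 0.039). Notch4, an endothelial Notch receptor, was at 0.53 (SE 0.10, adjusted p = 0.0534). Of 10 VEGF induced genes, 0 passed (3 at an unadjusted p under 0.05, median -0.037), with Adamts1, a secreted protease, at 0.56 (SE 0.14, adjusted p = 0.118) and the transcription factor Ets1 at -0.32 (SE 0.10, adjusted p = 0.178). Egr3 of that list was well above background on 4 vehicle arrays and only 1 E7386 array, so its lower mean lies near the floor. Of 14 hypoxia induced genes, 0 passed (6 at an unadjusted p under 0.05, median 0.0038), with Pfkfb3, an enzyme that raises glycolytic flux, at 0.37 (SE 0.10, adjusted p = 0.154) and Ndrg1 at 0.36 (SE 0.11, adjusted p = 0.179). For these counts, the share of all genes at an unadjusted p under 0.05 was 15.2%.

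**Figure D4:**
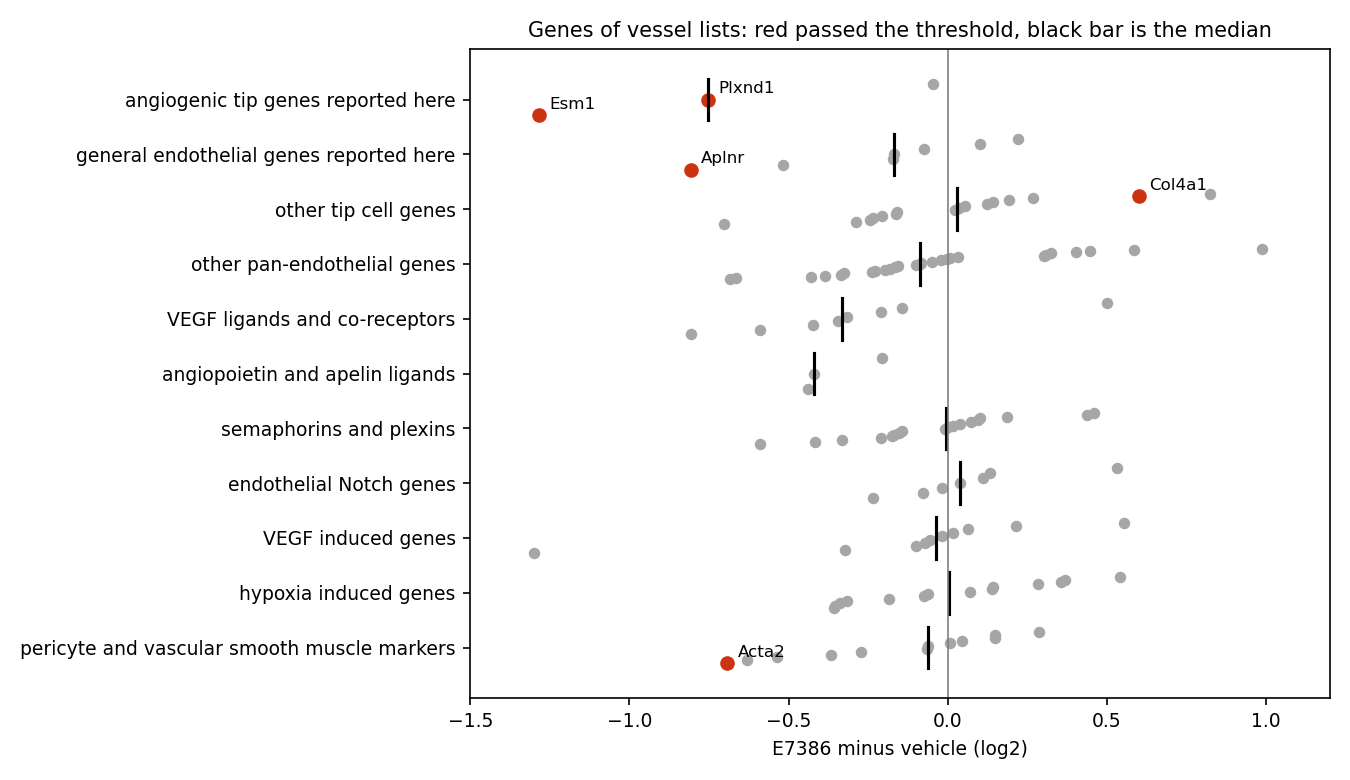
Difference E7386 minus vehicle on the log2 scale for each measured gene of the vessel lists (points), with the median of each list as a black bar and genes past a limma adjusted p of 0.05 in red. Outside the 10 endothelial genes, Col4a1 at 0.60 and Acta2 at -0.69 are the red points, and the medians of the other tip cell and pan-endothelial lists lie at 0.029 and -0.088.

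Cells around the vessel were described by 12 markers of pericytes and vascular smooth muscle. Acta2, which encodes smooth muscle actin and is also made by the dermal sheath of follicles, fell by 0.69 (SE 0.10, adjusted p = 0.0231), from 3.37 ± 0.10 to 2.68 ± 0.17 (SD, n = 4 each). It was the only gene of its list past the threshold, and the median of the list was -0.063. It did not pass with no filter on detection (adjusted p = 0.0517), and of 8 fits that each left out 1 array it passed in 2, those without vehicle replicate 4 and without E7386 replicate 1 (adjusted p = 0.0629 to 0.0871 in the other 6). Pdgfrb, the receptor of pericytes, was at -0.37 (SE 0.12, adjusted p = 0.215). Over the vessel lists without the 10 genes, 1 of 97 tested genes passed the threshold as higher and 1 as lower. Over all genes tested, 0.753% passed as higher and 0.367% as lower. Of the 97 genes, 57 had a lower mean with E7386, with a median difference of -0.063. Of 59 tested markers of lymphatic vessels, blood, leukocytes, skeletal muscle, fat, fibroblasts, keratinocytes and nerve sheath, 0 passed the limma threshold (5 at an unadjusted p under 0.05, against 15.2% of all genes), and their means per array overlapped between the groups for each list. The part of other cell types in the lower Esm1, Plxnd1 and Aplnr signals was not tested.

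Genes whose pattern over the 8 arrays was most like that of Esm1 and Plxnd1 were found by the root mean square difference of log2 values, each gene centred on its own mean, over 16119 other genes with a symbol. For Esm1 these were Pth1r, a receptor of parathyroid hormone (0.18), Pcp4l1 (0.20), Agr2, a disulfide isomerase (0.24), and Palm3 (0.24), with differences between groups of -1.11, -1.01, -1.01 and -1.13. For Plxnd1 they were Qprt, an enzyme of NAD synthesis (0.082), Mcm2, a helicase subunit of DNA replication (0.082), Ptger1, a prostaglandin receptor (0.094), and Rcor2, a corepressor subunit (0.10), with differences of -0.76, -0.72, -0.70 and -0.71. None of these is an endothelial gene of the lists used here, but the other vessel lists held only 97 tested genes. The difference between groups is part of this measure, so genes with like differences rank first. Among the 10 genes, Plxnd1 was closest to Aplnr (0.17) and Esm1 also to Aplnr (0.36), all 3 being lower with E7386. The most alike pair was Cdh5 and Tie1 (0.094), though the measure is also small for genes that vary little.

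**Figure D5:**
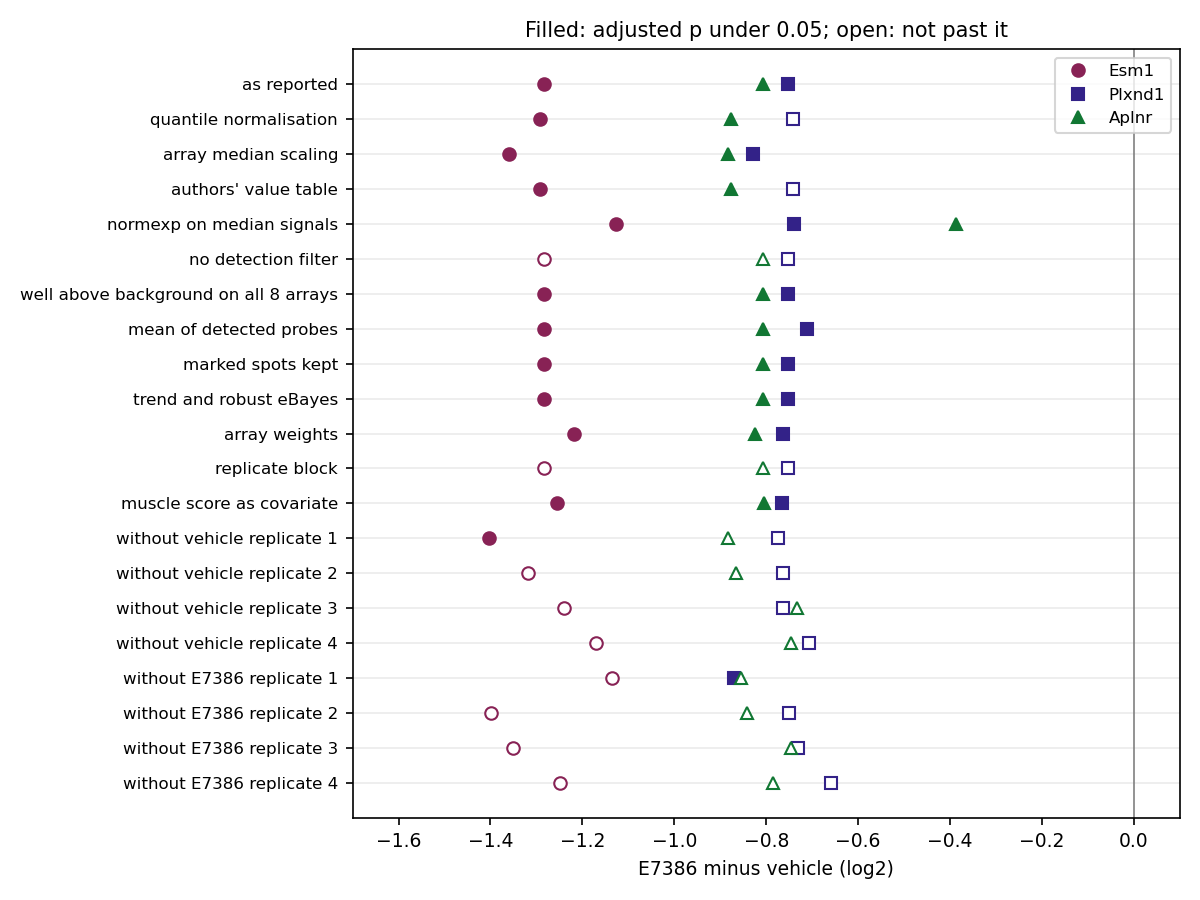
Difference E7386 minus vehicle on the log2 scale for Esm1, Plxnd1 and Aplnr as reported and under 20 other settings of normalisation, filter, probe, model and arrays, filled where the limma adjusted p was under 0.05. All points lie left of 0, and the open symbols gather in the fits that leave out an array, that use no detection filter or that fit the replicate number as a block, with Plxnd1 also open under quantile normalisation and in the authors' log2 table.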

How the data were processed

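RNA of 8 whisker follicle samples (50 ng each) was labelled with Cy3 and hybridised to 1-colour Agilent arrays, per the labels' protocols. The authors deposited scanner files with an intensity per spot, made with Agilent Feature Extraction 11.5.1.1 per the file headers (version 11 per the submitters' processing notes), and a table of log2 values. That deposited log2 table has a median of 5.31 in every column and keeps the ranks of the processed signal, as quantile normalisation gives, and it served as an alternative.

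Spots of a probe were averaged as log2 processed signal, leaving out spots marked as non-uniform, and the 75th percentile of each array was subtracted. Probes were named through RefSeq accessions (GRCm38.p6 table), and array coordinates (mm9) were not used. Probes without a match kept their array identifier and were counted as genes. Of the 25359 genes tested, 16135 had a symbol. The brightest probe stood for a gene, kept where well above background on 3 of 4 arrays of a group. Precision is limited by the number of arrays. The test was limma 3.58.1 (lmFit and eBayes, in R 4.3.3), with Benjamini-Hochberg adjustment over 25359 genes, of which 191 passed as higher and 93 as lower. Rises made up 67.3% of calls, or 52.3% with arrays scaled by their medians and 57.0% with normexp. The script was tested on simulated data. The 10 genes and all gene lists were chosen with earlier results of these data known.

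Apart from the 10 genes, those named are the genes past the threshold and the 2 with the smallest p of each vessel list, genes past it in lists of other cell types, and the 4 most alike in pattern to Esm1 and to Plxnd1. Flt4 and Egr3 are named only for their weak detection with E7386. Nothing in the labels says that same-numbered samples share a cage or day, so the numbers were not taken as pairs. Correlations of deviations between same-numbered arrays of the groups were 0.49, -0.16, 0.29 and 0.18, which do not settle whether they are pairs. The planned normexp on mean signals was replaced by one on median signals.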

Additional observations from a re-analysis of the deposited data

Results flagged for a closer look

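Plxnd1 in the vehicle group had a value set apart from the rest. Vehicle replicate 4 was at 3.90, while the other vehicle arrays lay between 3.70 and 3.73, and the gap made up 0.837 of the range of the group, above the critical value of Dixon's test for 4 samples. It was the only such value in 20 groups of arrays examined, of which chance marks about 1. Without vehicle replicate 4 the Plxnd1 difference was -0.71.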

How the results depend on the processing

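Over 25359 genes, 284 passed the threshold as reported. The count was 479 with normexp on median signals, 153 with no detection filter, 59 with the replicate number as a block, 623 with the muscle mean as a covariate, 690 at an adjusted p under 0.1, and 88 to 241 when 1 array was left out. Normexp on median signals, the muscle covariate, the use of Kdr's other probe in the contrast and leaving Aplnr out of the general genes were chosen after seeing the data. Of the 10 endothelial genes, 3 passed as reported, 0 with no detection filter, 0 with the replicate block and 0 to 1 when 1 array was left out. With quantile normalisation and with the authors' log2 table Plxnd1 did not pass and Esm1 and Aplnr did. The block fit has 1 array of each group per number, so by design it could not move the differences (-1.28 for Esm1, -0.75 for Plxnd1 and -0.81 for Aplnr). Only 3 of 8 arrays were most like the array of the other group with their own number.

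The contrast of sprouting and general genes was -0.49, and -0.24 with Kdr among the sprouting genes. It was -0.57 to -0.44 when 1 array was left out and -0.59 without Aplnr. Over its 25 alternatives it stayed below 0, though several of them, such as array median scaling and the replicate block, could not move it by design. Esm1 and Plxnd1 were chosen as lower with E7386, so that sign is no test of sprouting genes. Of the other vessel lists 2 genes passed as reported, against 1 with array medians, 4 with normexp on median signals, 1 with no detection filter, 4 with detection on all 8 arrays, 5 with trend and robust eBayes, 4 with array weights, 0 with the replicate block (Col4a1 at an adjusted p of 0.0898 and Acta2 at 0.0611), 6 with the muscle covariate and 0 to 4 when 1 array was left out. Differences that changed sign were those of Kdr, at -0.22 as the mean of its probes, and of Apln, at 0.085, 0.046, 0.030 and 0.012 without vehicle replicate 3, vehicle replicate 4, E7386 replicate 1 and E7386 replicate 4 (-0.21 to 0.085 over the fits without 1 array). The causes were not tested. Normexp on mean signals was not run. The dim Aplnr signal moved most under normexp, to -0.39.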
